A study of Mus musculus with 63 samples.

Results

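The immediate early response genes described here are *Fos*, *Fosb*, *Jun*, *Junb*, *Egr1*, *Ier2*, *Ier3*, *Ier5*, *Atf3* and *Dusp1*, chosen by name. All 10 were found among the 24766 genes of the table, and all 10 passed the filter on low values, a mean of at least 10. RNA was sequenced in bulk from 63 pieces of tumour, each 1 library, taken from the small intestine of 1 female and 1 male mouse, 2 in all. Both mice were heterozygous for *Apc* (labelled Apchet) and for the Confetti reporter on a C57BL/6 background. Their Cre was *Villin-creERT2*, active in the intestinal epithelium, so that recombination at *Apc* and at the reporter was limited to epithelial cells. Both had 4 mg tamoxifen when over 8 weeks old and 200 mg per kg of the mutagen ENU 10 days later, and no tumour came from an untreated mouse. The 23 undivided tumours (10 female, 13 male) were sequenced whole. From each of 20 heterotypic tumours (10 in each mouse), which held glands that differed in Confetti colour or in being labelled at all, a major clone, the larger, and a minor clone were cut apart and sequenced, giving 20 of each. The series' own description gives 20 monoclonal tumours, whereas 23 libraries without a clone letter are present, so these are called undivided here. They are numbered 1 to 10 in each mouse, and 15, 17 and 18 besides in the male mouse, and no source used here says which 3 are beyond the 20. Each mouse stands for its sex, and the tumours of 1 mouse are not separate animals, so p-values measure the spread between tumours of these 2 mice.

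Immediate early genes are transcribed within minutes of a stimulus, before any new protein is needed, because the factors that switch them on are already present and wait to be phosphorylated. Growth factors act through ERK on the ternary complex factors that sit with SRF on their promoters, and cAMP, calcium and stress act through CREB and the kinases JNK and p38. FOS, FOSB, JUN and JUNB are basic leucine zipper proteins that pair to form AP-1, EGR1 is a zinc finger factor, and ATF3 is a stress-induced member of the ATF family. IER2, IER3 and IER5 are short-lived proteins of less settled function, IER3 being known for its part in survival under stress and IER5 for its link to the heat shock factor HSF1. DUSP1 is a phosphatase that switches off p38, JNK and ERK and so closes the loop. In the intestine these genes respond to growth signals, wounding and inflammation, and they are also known to rise while tissue is handled, cut or digested, which is why they are looked at in dissected samples.

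Promoters of 8 of the 10 members were found in the RefSeq table used (build GRCm38.p6), and *Ier2* and *Egr1* were not. The 250 bases before the start site are shown for *Fos*, *Dusp1* and *Junb*, whose levels were among the most closely linked over the libraries, and for *Ier5*, which kept least to the others and was the only member called in a comparison over both mice. They lie at chr12:85473640-85473889 on the plus strand (*Fos*) and, on the minus strand, at chr17:26508473-26508722 (*Dusp1*), chr8:84978749-84978998 (*Junb*) and chr1:155099637-155099886 (*Ier5*). Capitals mark matches, on either strand, to the cAMP response element TGACGTCA or its shorter core TGACG, which overlap.
Fos: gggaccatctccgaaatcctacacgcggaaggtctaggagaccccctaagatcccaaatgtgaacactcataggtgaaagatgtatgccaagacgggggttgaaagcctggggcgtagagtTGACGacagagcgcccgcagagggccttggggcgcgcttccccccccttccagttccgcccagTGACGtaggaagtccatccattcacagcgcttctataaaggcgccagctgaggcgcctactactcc
Dusp1: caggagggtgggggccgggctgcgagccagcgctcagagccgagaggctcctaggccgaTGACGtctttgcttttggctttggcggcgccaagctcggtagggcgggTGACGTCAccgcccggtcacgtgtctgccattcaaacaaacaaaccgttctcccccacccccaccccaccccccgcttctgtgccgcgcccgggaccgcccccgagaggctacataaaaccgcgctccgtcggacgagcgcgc
Junb: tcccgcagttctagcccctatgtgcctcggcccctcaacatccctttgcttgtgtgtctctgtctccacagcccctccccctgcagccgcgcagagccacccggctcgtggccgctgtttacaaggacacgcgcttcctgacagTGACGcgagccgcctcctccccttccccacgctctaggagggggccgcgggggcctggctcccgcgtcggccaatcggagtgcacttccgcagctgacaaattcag
Ier5: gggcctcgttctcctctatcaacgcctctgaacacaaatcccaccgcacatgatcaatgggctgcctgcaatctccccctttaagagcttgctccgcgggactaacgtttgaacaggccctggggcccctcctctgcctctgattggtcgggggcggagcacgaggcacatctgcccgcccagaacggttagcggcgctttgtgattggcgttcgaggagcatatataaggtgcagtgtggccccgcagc

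The core TGACG lay in the window of 5 of these 8 members (*Fos*, *Fosb*, *Junb*, *Atf3* and *Dusp1*), against 17.8% of all 32851 promoter windows of this length. The full TGACGTCA lay in that of *Dusp1* only, at 143 to 136 bases before the start, against 1.55% of all windows. In *Fos* the core began 129 and 66 bases before the start. The AP-1 letters TGANTCA (6.75% of all windows) and the CArG box of SRF (1.47%) lay in none of the 8, and the EGR letters GCGGGGGCG (2.57%) in that of *Fosb* only. These are matches of letters in a short window and show no binding.

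Values are the study's normalised counts, and differences are on the log2(normalised count + 1) scale. Normalised counts summed to between 26140200 and 45909900 per library, and the reads behind a library were estimated at 13100000 to 52000000. The 8 epithelial markers (*Epcam*, *Vil1*, *Cdh1*, *Cdx2* and others) summed to 166659 to 631874 in the undivided tumours, and none of them was at 0 in every library of a class. The share of the ribosomal RNA *Rn18s* differed between the classes, with medians of 3.11% in undivided tumours, 1.24% in major clones and 6.19% in minor clones. Undivided tumours 15, 17 and 18 of the male mouse stood apart by the members themselves and were singled out after their values were seen. For *Junb* (1767 to 2092), *Ier2* (1123 to 1216) and *Ier3* (93.4 to 225) they were the lowest of all 63 libraries. For *Fos* (404 to 1158) 1 of the other 60 libraries lay below the highest of them, for *Dusp1* (118 to 234) 2 and for *Fosb* (10.9 to 37.7) 3. For *Jun* (3003 to 3122) 4 did, for *Egr1* (259 to 791) 15, for *Atf3* (117 to 291) 17 and for *Ier5* (792 to 1244) 55. *Rn18s* held 11%, 14.4% and 19.3% of their normalised counts, ranking 9, 3 and 1 from the highest of the 63, and their reads were estimated at 20300000, 19600000 and 14700000. Their epithelial markers summed to 166659 to 203613 and their T cell markers to 716 to 994, against medians of 336883 and 468 over all undivided tumours. Markers of single epithelial lineages were not low throughout. Crypt stem cell markers summed to 17969 to 24226 (median 12481) and enteroendocrine markers to 5461 to 8129 (median 3922). Goblet cell markers summed to 132689 to 162522 (median 161517) and enterocyte markers to 585958 to 1120960 (median 898767). The part of these measures in the low values was not tested, and each member's difference of undivided tumours from minor clones is given with and without them.

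The members differed in level and more so in spread. Per kilobase of the canonical transcript, the median over undivided tumours was highest for *Junb*, at 3258 normalised counts, then *Jun* at 1509, *Fos* at 1404, *Ier2* at 1130, *Ier3* at 943, *Dusp1* at 417, *Ier5* at 335, *Atf3* at 231, *Egr1* at 186 and *Fosb* at 33.3. Neighbours in this order such as *Jun* and *Fos* overlapped widely between tumours. On the log2 scale the SD over the 23 undivided tumours was 1.38 for *Fosb*, 1.24 for *Ier3*, 1.17 for *Dusp1* and 0.98 for *Fos*, but 0.27 for *Ier2* and 0.25 for *Ier5*. The widest of these rested in part on male tumours 15, 17 and 18. Over the 13 undivided tumours of the male mouse the SD was 1.44 for *Ier3* and 1.18 for *Fos*, and without those 3 it was 0.85 and 0.70, against 0.46 and 0.60 in the female mouse. In the 20 major clones it ran from 0.90 for *Fosb* and 0.77 for *Dusp1* to 0.27 for *Ier5* and 0.21 for *Ier2*, with *Ier3* at 0.50. In bulk tissue, fewer cells of a type and less RNA in each cell cannot be told apart.

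**Figure D1:**
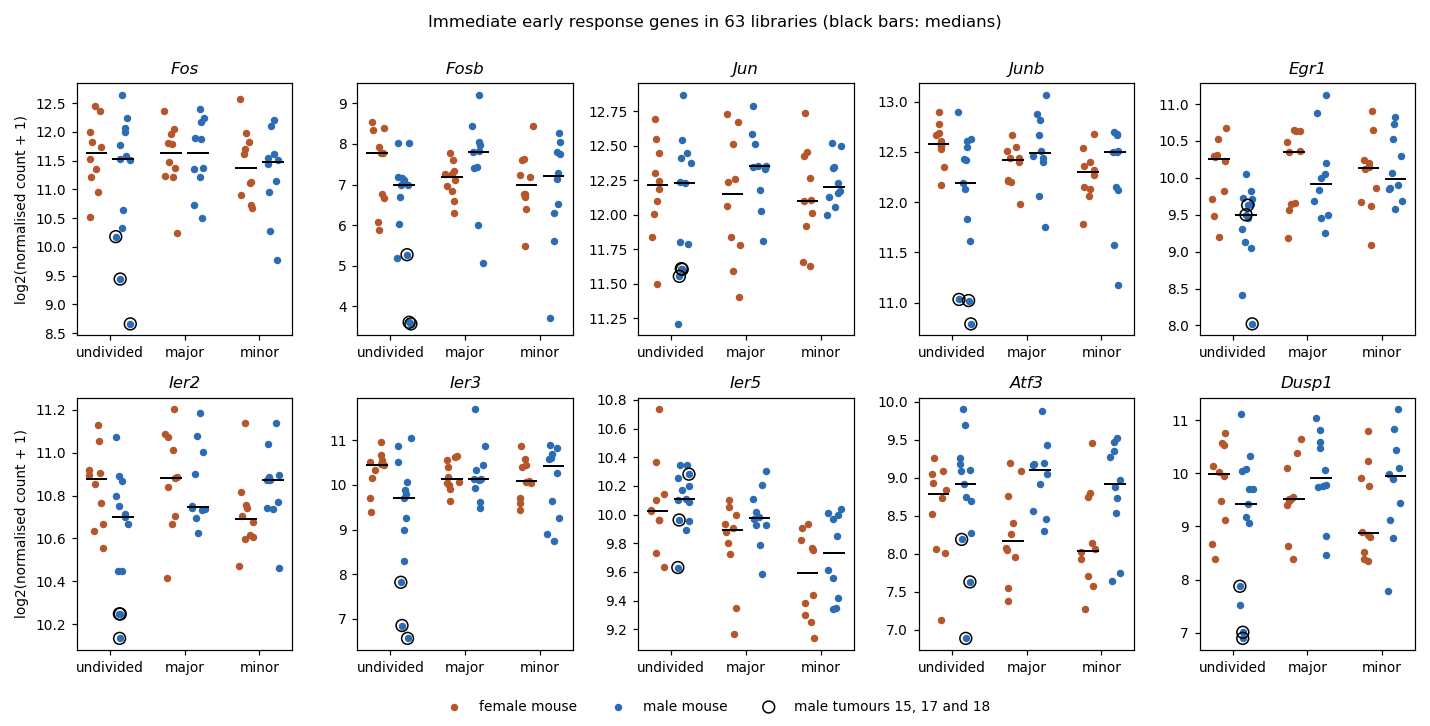
Level of each member in every library, as log2(normalised count + 1), by class and mouse. Points are libraries, black bars are medians and rings mark undivided tumours 15, 17 and 18 of the male mouse. The classes overlap for every member, and the medians of *Ier5* are 1097, 974 and 823 in undivided tumours, major and minor clones.

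*Ier5* was the only member that differed between undivided tumours and minor clones. It is a gene of 1 exon at chr1:154972107-154975382 (GRCm39, minus strand). In undivided tumours its lowest, median and highest normalised counts were 792, 1097 and 1705, in major clones 575, 974 and 1262, and in minor clones 562, 823 and 1051. Of the 23 undivided tumours, 21 lay above the median of the minor clones and 13 above the highest minor clone, and the classes still overlapped. The mean was 1104 ± 198 (SD, n = 23) in undivided tumours and 814 ± 163 (SD, n = 20) in minor clones. The log2 fold change was 0.44 (SE 0.083, 95% confidence interval 0.27 to 0.61), with an adjusted p of 0.00904 in limma with Benjamini-Hochberg adjustment. Of all 16491 genes tested in this comparison 3.70% were called, so 1 of 10 members is a small count to read. The other 9 members were not called, and 4 of 10 members were positive, with a median log2 fold change of -0.07 against -0.01 over all genes. Without male tumours 15, 17 and 18, 8 of 10 were positive, with a median of 0.19 against -0.01 over all genes, so that the direction of the members as a whole turned on these 3 libraries.

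The difference in *Ier5* was also called in other fits. It was 0.47 (limma adjusted p = 0.0115) without male tumours 15, 17 and 18, where 5.03% of all genes were called, and 0.41 (limma adjusted p = 0.00246) with log2 *Rn18s* as a covariate, where 8.82% were. It was 0.50 (SE 0.13) in the female mouse, where no gene at all passed the adjusted threshold, and 0.39 (SE 0.11) in the male mouse, with limma adjusted p-values of 0.441 and 0.0374. Leaving out any 1 tumour gave 0.41 to 0.46, with limma adjusted p-values from 0.0025 to 0.0191. Markers of several cell types were called as well, though not every list had 1 sign. In the same comparison 4 of 7 tested enteroendocrine markers (*Chga*, *Chgb*, *Cck* and *Sct*), 2 of 10 enterocyte markers (*Sis* and *Slc5a1*), 2 of 6 T cell markers (*Cd3e* and *Cd3g*), 1 of 7 goblet cell markers (*Clca1*) and 1 of 8 epithelial markers (*Cldn7*) were called higher in undivided tumours, while *Cdh5* of the endothelial markers and *Tubb3* of the neuronal ones were called lower. Positive were 7 of 7 enteroendocrine, 9 of 10 enterocyte and 6 of 6 T cell markers. So were 8 of 8 smooth muscle, 5 of 5 red blood cell and 4 of 4 tested B and plasma cell markers. None of these was called, nor any of the macrophage and neutrophil markers, of which 7 of 9 were positive. Of the fibroblast markers 1 of 8 was positive, of the crypt stem cell markers 1 of 6 and of the Paneth cell markers 3 of 6. Other lists went both ways, with 4 of 7 goblet cell (*Muc2* having -0.44) and 5 of 8 epithelial markers positive (*Krt19* having -0.20). The same held for 3 of 7 endothelial markers and 1 of 3 markers of neurons and glia (*S100b*, 0.29). Without male tumours 15, 17 and 18 no T cell or endothelial marker was called, *Vil1* was called besides *Cldn7*, and the other calls stood. The summed enteroendocrine markers ran from 1799 to 10447 in undivided tumours and from 845 to 5407 in minor clones, the T cell markers from 189 to 1517 and from 138 to 715, the enterocyte markers from 230553 to 1910220 and from 149833 to 1353180. The goblet cell sums ran from 49924 to 366341 and from 27928 to 253113, and none of these markers was at 0 throughout a class. Over the 63 libraries, centred on mouse and class, *Ier5* correlated at 0.47 with the level of the epithelial markers, at 0.17 with the T cell markers, at 0.09 with the enterocyte markers and at -0.09 with the enteroendocrine markers. It correlated at 0.35 with the smooth muscle, 0.29 with the fibroblast and -0.28 with the crypt stem cell markers, and at -0.38 with log2 *Rn18s*. Their part in the difference was not tested.

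*Egr1*, the zinc finger factor, had values that leaned the other way without passing the test. Its lowest, median and highest normalised counts were 259, 836 and 1640 in undivided tumours, 582, 1042 and 2238 in major clones and 546, 1091 and 1924 in minor clones. None of the undivided tumours exceeded the highest minor clone, and 3 lay below the lowest. The log2 fold change of undivided tumours against minor clones was -0.42 (95% confidence interval -0.74 to -0.09, limma adjusted p = 0.135). With *Ier5* it was 1 of 2 members at an unadjusted p under 0.05, a level that 19.6% of all genes reached. Without male tumours 15, 17 and 18 it was -0.35 (limma adjusted p = 0.17).

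The AP-1 subunits ranged widely within each class and none was called between undivided tumours and minor clones. *Fos* (chr12:85520658-85524047 on GRCm39, plus strand) ran from 404 through a median of 2969 to 6422 in undivided tumours, from 1216 through 3196 to 5407 in major clones and from 876 through 2841 to 6064 in minor clones. Its log2 fold change of undivided tumours against minor clones was 0.01 (95% confidence interval -0.49 to 0.52). *Junb* ran from 1767 through 5893 to 7641, from 3442 through 5560 to 8601 and from 2319 through 5186 to 6652 in the same classes. That of *Junb* was likewise 0.01 (-0.29 to 0.31). *Jun* had medians of 4813, 5025 and 4590 and a difference of -0.08 (-0.30 to 0.15). *Fosb* was the scarcest and most variable, from 10.9 to 368 in undivided tumours, from 32.5 to 593 in major clones and from 12.1 to 346 in minor clones, with a difference of -0.11 and an interval of -0.84 to 0.63. The interval of *Fosb* was the widest of the 10. When male tumours 15, 17 and 18 were left out the differences were 0.28 for *Fos*, 0.24 for *Fosb*, 0.00 for *Jun* and 0.19 for *Junb*, and none was called.

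None of the remaining members was called in this comparison. *Dusp1*, the phosphatase, ran from 118 through 829 to 2215 in undivided tumours, from 335 through 857 to 2110 in major clones and from 221 through 778 to 2362 in minor clones. Its difference between undivided tumours and minor clones was -0.12 (95% confidence interval -0.77 to 0.52). *Ier3* ran from 93.4 to 2109 in undivided tumours, from 720 to 3329 in major clones and from 430 to 1915 in minor clones, with a difference of -0.35 (-0.93 to 0.22). *Atf3* had medians of 459, 405 and 398 and a difference of 0.14 (-0.29 to 0.57). *Ier2*, the least variable of these, had medians of 1722, 1859 and 1721 and a difference of -0.06 (-0.21 to 0.08). With male tumours 15, 17 and 18 left out the differences were 0.18 for *Dusp1*, 0.33 for *Atf3*, 0.01 for *Ier2* and -0.0038 for *Ier3*, and none was called.

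**Figure D2:**
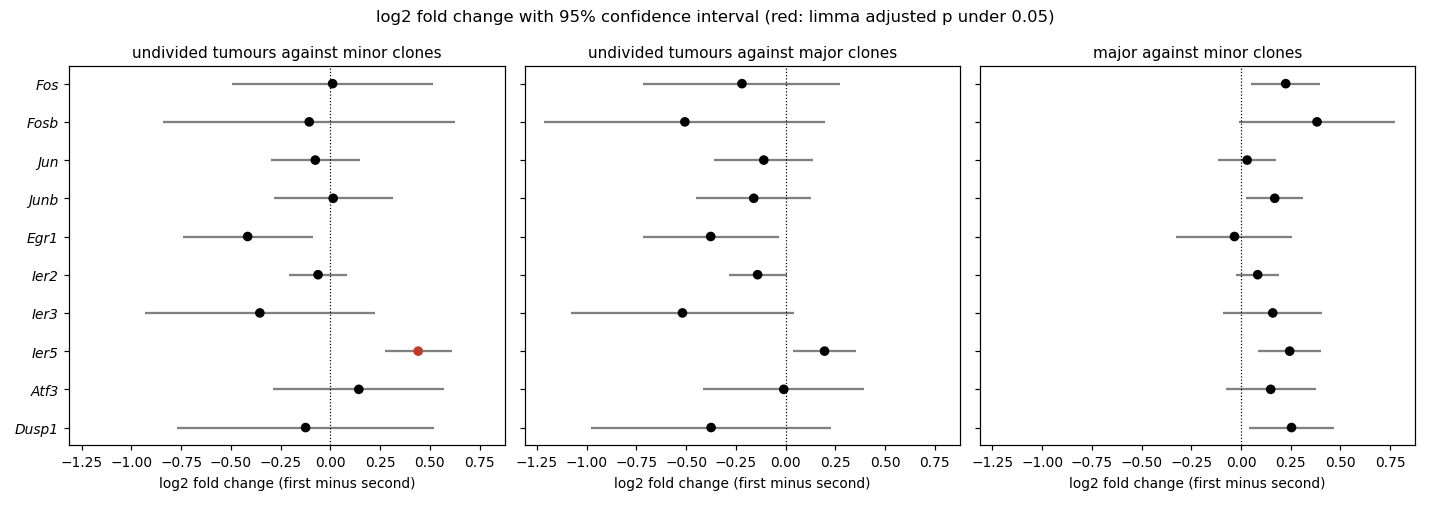
log2 fold change of each member with its 95% confidence interval (first class minus second) in 3 comparisons. *Ier5* in undivided tumours against minor clones (0.44) is the single red point, called at a limma adjusted p under 0.05. The intervals of *Fosb*, *Ier3* and *Dusp1* are the widest in the panels with undivided tumours.

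Against the major clones no member was called, where 0.0121% of all genes were (2 of 16510). *Egr1* (-0.38, limma adjusted p = 0.383) and *Ier5* (0.20, limma adjusted p = 0.353) were the 2 members at an unadjusted p under 0.05, which 12.0% of all genes reached. The undivided tumours are the same as in the comparison with minor clones, so the comparisons are not independent. Side by side, *Ier5* was 0.44 above minor and 0.20 above major clones, *Egr1* 0.42 below and 0.38 below, *Fos* 0.01 above and 0.22 below, and *Ier3* 0.35 below and 0.52 below. These values of *Fos* and *Ier3* rested on male tumours 15, 17 and 18, without which *Fos* was 0.28 and 0.05 above and *Ier3* 0.0038 and 0.16 below. *Egr1* was then 0.35 and 0.31 below and *Ier5* 0.47 and 0.22 above. Against major clones 1 of 10 members was positive (median -0.19), and without these libraries 4 of 10 were (median -0.05). With 1 value per divided tumour, the mean of its clones, no member was called either, where 0.121% of all genes were. *Ier5* was 0.32 higher in undivided tumours (95% confidence interval 0.17 to 0.47), with a limma adjusted p of 0.0512, and 20 of 23 undivided tumours lay above the median of the divided ones. Without male tumours 15, 17 and 18 its adjusted p in limma was 0.0309, where 0.267% of all genes were called. *Egr1* (-0.40, limma adjusted p = 0.212) was the other member at an unadjusted p under 0.05, where 14.7% of all genes were.

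The paper describes tumours being viewed under a fluorescence dissecting microscope whether they were then removed whole or cut into parts. Undivided tumours were taken out whole, and the clones were cut from heterotypic tumours. Both were placed fresh in RNAlater, and the time each piece took is not given in the sources used here. Cutting therefore coincides with the class of tumour, and the 2 cannot be told apart in these libraries. The effect of handling on these genes was not tested.

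Between the clones of one tumour no member was called, where 1.14% of all genes were. The differences were small and leaned to the major clone, with 9 of 10 members positive and a median log2 fold change of 0.16, against 0.01 over all genes. At an unadjusted p under 0.05 stood 4 of 10 members, against 22.4% of all genes. *Ier5* was higher in the major clone of 16 of 20 tumours (0.24, 95% confidence interval 0.09 to 0.40, limma adjusted p = 0.0754). Its difference was widest in female tumour 30, with 975 in the major and 562 in the minor clone, and opposite in female tumour 19, with 575 and 862. Without that tumour it was 0.29 and passed the threshold (limma adjusted p = 0.0264). *Fos* was higher in the major clone of 15 of 20 tumours (0.22, limma adjusted p = 0.119), *Junb* of 14 (0.17, limma adjusted p = 0.151) and *Dusp1* of 13 (0.25, limma adjusted p = 0.146). *Egr1* was higher in the major clone of 9 of 20 and differed by -0.03, with an interval of -0.32 to 0.26. *Rn18s* moved with these differences. With log2 *Rn18s* as a covariate beside the tumour, *Ier5* came to 0.08, *Fos* to 0.03, *Junb* to 0.03 and *Dusp1* to 0.14, and no member was at an unadjusted p under 0.05. Several lists of cell type markers leaned the same way. At an unadjusted p under 0.05 and higher in the major clone were 7 of 7 goblet cell markers (median 0.57, *Clca1* and *Spink4* called), and *Sis* of the enterocyte and *Chgb* of the enteroendocrine markers were called as well. The fibroblast markers had a median of 0.61 and the smooth muscle markers of 0.63, each with 7 of 8 at an unadjusted p under 0.05, and the macrophage and neutrophil markers had 0.41, with 6 of 9. Other lists did not lean so, with 3 of 6 crypt stem cell markers positive (median -0.03) and 1 of 3 markers of neurons and glia (median -0.05). Of the endothelial markers 4 of 7 were positive (median 0.25), and the 1 at an unadjusted p under 0.05, *Cdh5*, had -0.54. The summed goblet cell markers ran from 106087 to 313115 in major and from 27928 to 253113 in minor clones, the fibroblast markers from 2460 to 26833 and from 2130 to 27573, and none of these markers was at 0 throughout a class. The part of these markers in the members' differences was not tested.

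The mice gave different pictures of the undivided tumours. Against minor clones all 10 members were positive in the female mouse (median log2 fold change 0.25), and 9 of 10 were negative in the male mouse (median -0.24), *Ier5* being the exception. Without male tumours 15, 17 and 18 the male mouse had 5 positive and 5 negative, with a median of 0.01. The undivided tumours of the female mouse had *Egr1* from 586 through 1226 to 1640, and those of the male mouse from 259 through 723 to 1061. In the male mouse alone *Egr1* was lower in undivided tumours than in minor clones (-0.79, SE 0.21, limma adjusted p = 0.0346), also without tumours 15, 17 and 18 (-0.70, limma adjusted p = 0.0363), whereas in the female mouse it differed by 0.01 (SE 0.21). With *Ier5* it was 1 of 2 members called in the male mouse, where 4.59% of all genes were called, and 6.51% without those tumours. The test of the difference between the mice called 0 members and 0% of all genes. *Egr1* (-0.80, limma adjusted p = 0.284) and *Ier2* (-0.35, limma adjusted p = 0.287) were at an unadjusted p under 0.05 there, as were 12.7% of all genes. Of the 2, *Egr1* alone (-0.71) was at that level when tumours 15, 17 and 18 were left out, *Ier2* having -0.23. Against major clones the difference between the mice likewise called 0 members and 0% of all genes, and 3 members (*Fosb*, *Junb* and *Ier3*) were at an unadjusted p under 0.05, which 11.6% of all genes reached, and none of the 3 was when those tumours were left out. For major against minor clones it called 0 members and 0% of all genes, and none of the members was among the 7.65% at an unadjusted p under 0.05. A difference between the mice in these genes was thus not shown.

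**Figure D3:**
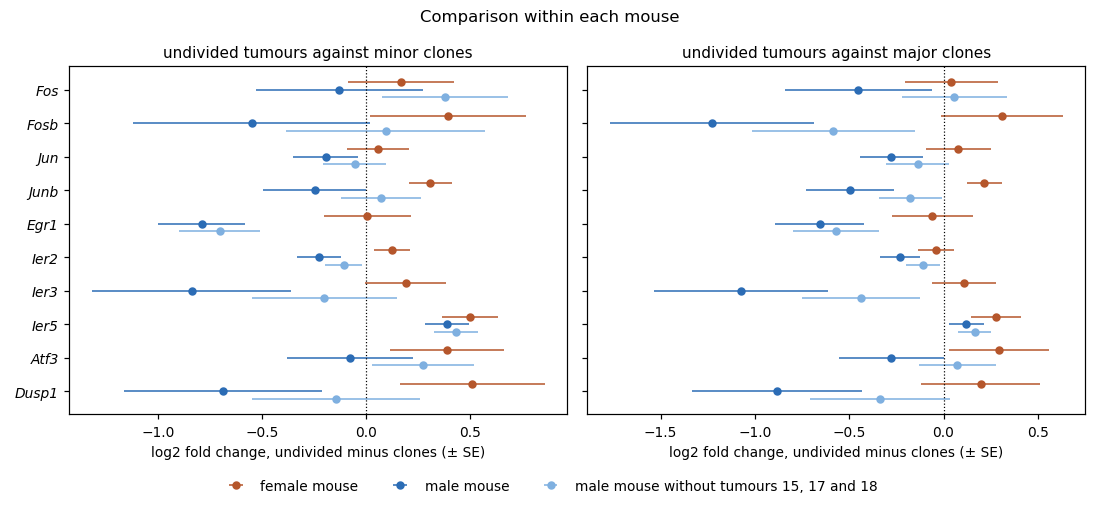
log2 fold change of each member (undivided tumours minus clones, with SE) within the female mouse, the male mouse and the male mouse without tumours 15, 17 and 18. *Ier3* in the male mouse moves from -0.84 to -0.20 against minor clones when these 3 libraries are left out, and *Egr1* only from -0.79 to -0.70.

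The level of several members was shared between the clones of a tumour. Over the 20 divided tumours, centred on each mouse, the major and the minor clone of a tumour correlated for *Dusp1* with r = 0.852 (Spearman's rho 0.833) and for *Fos* with r = 0.829 (rho 0.821), each at an adjusted permutation p of 1e-04 over the 10 members for r and 2e-04 for rho. In male tumour 19 *Dusp1* was low in both clones, at 353 and 221, and in male tumour 20 it was high in both, at 1786 and 2362. *Fos* was highest in female tumour 24 and male tumours 20 and 31 in the major clones (5285, 4870 and 5407), and the same 3 tumours were the highest in the minor clones (6064, 4707 and 4373). Without the 2 tumours whose major clones lay farthest from the median r was 0.840 for *Dusp1* and 0.773 for *Fos*. Within the female and the male mouse it was 0.781 and 0.903 for *Dusp1* and 0.838 and 0.824 for *Fos*. In most divided tumours both clones came from the same segment of the small intestine. For no member did the centring or the permutations take segment into account. These correlations therefore do not separate a level shared within a tumour from a level shared within a segment, and the part of segment was not tested.

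*Atf3* (r = 0.646, rho = 0.627), *Fosb* (r = 0.654, rho = 0.684) and *Junb* (r = 0.64, rho = 0.531) also passed, with adjusted permutation p-values for r of 0.0093, 0.0204 and 0.0204 and for rho of 0.0109, 0.00517 and 0.0465. For *Fosb* and *Junb* the 2 tumours left out in the same way included male tumour 19. Without them r was lower, at 0.429 (permutation p = 0.0978) and 0.41 (permutation p = 0.117). Leaving out the farthest tumours also narrows the range of values, so this does not show that the relation rested on them. *Atf3* kept r = 0.574 (permutation p = 0.0168). *Ier3* (r = 0.538, rho = 0.448), *Jun* (r = 0.53, rho = 0.541) and *Ier2* (r = 0.443, rho = 0.429) had adjusted permutation p-values for r of 0.051, 0.0557 and 0.0694 and for rho of 0.0816, 0.0465 and 0.0816. *Egr1* (r = 0.166, rho = 0.143) and *Ier5* (r = 0.18, rho = 0.206) did not pass, at adjusted permutation p-values of 0.491 each for r and of 0.557 and 0.44 for rho. The mice differed in r for several members, with -0.304 in the female and 0.671 in the male mouse for *Egr1*, 0.723 and -0.089 for *Jun*, and 0.068 and 0.678 for *Ier3*, and these differences were not tested. In total 7 of 10 members had r above 0.5, against 18.7% of all 16427 genes, and 0.213% of genes exceeded *Dusp1* and 0.329% *Fos*. Without the 2 tumours farthest from the median, 3 members stayed above 0.5 (*Dusp1*, *Fos* and *Atf3*). Other measures correlated between the clones of a tumour to differing degrees, with r = 0.647 for the macrophage and neutrophil markers, 0.435 for the epithelial markers and 0.391 for log2 *Rn18s*, but 0.137 for the T cell markers and 0.11 for log2 estimated reads, against a median of 0.253 over all genes. Their part in the levels of the members was not tested.

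**Figure D4:**
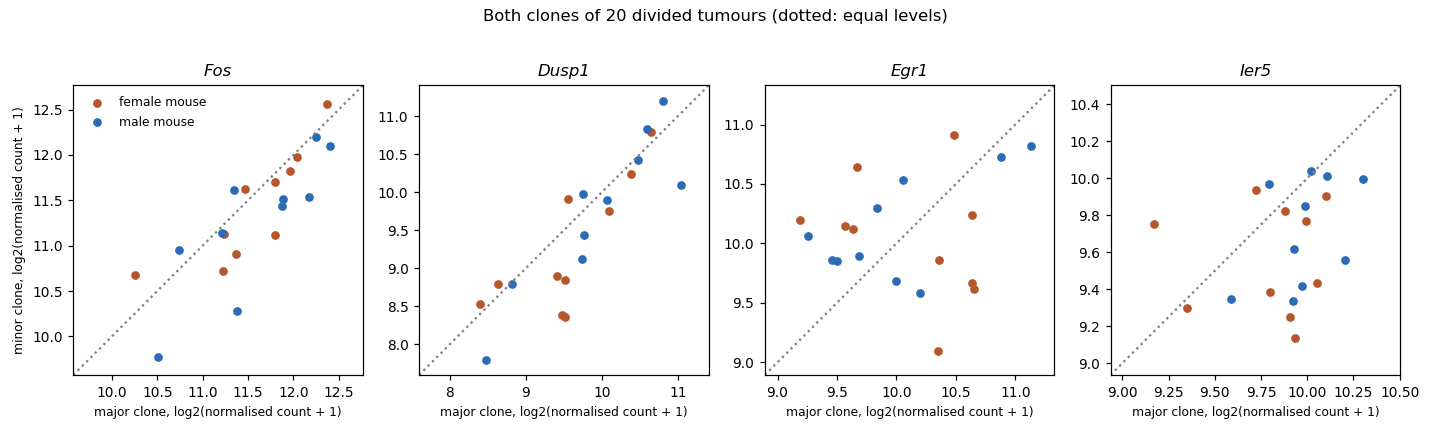
Major (x axis) against minor clone (y axis) of the 20 divided tumours, as log2(normalised count + 1), for 4 members, coloured by mouse. *Fos* and *Dusp1* lie along the dotted line of equal levels (r = 0.829 and 0.852), *Egr1* scatters (r = 0.166), and *Ier5* lies mostly below the line, with the major clone higher in 16 of 20.

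Over all 63 libraries, centred on mouse and class, the members formed a core and 3 outlying genes. The 45 pairs of members had a median r of 0.505 (-0.138 to 0.913), with 16 pairs above 0.7, and a median of 0.532 without male tumours 15, 17 and 18. *Junb* with *Ier3* (0.913), *Fos* with *Dusp1* (0.904) and *Junb* with *Dusp1* (0.864) were the closest, and these were 0.882, 0.883 and 0.837 without those tumours. The median r of a member with the other 9 was 0.794 for *Dusp1*, 0.754 for *Junb* and 0.739 for *Ier3*, but 0.451 for *Jun*, 0.43 for *Egr1* and 0.314 for *Ier5*. *Egr1* and *Ier5*, the members with the lowest unadjusted p in undivided tumours against minor clones, were the only pair below 0 (-0.138). These correlations are a description, since the points share mice, tumours and sequencing depth.

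**Figure D5:**
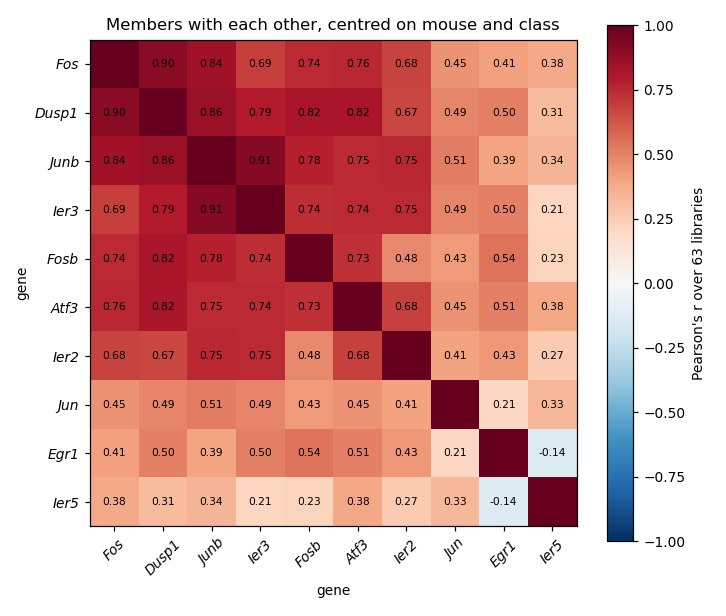
Pearson's r between each pair of members over 63 libraries, of log2 values centred on mouse and class. *Fos*, *Dusp1*, *Junb* and *Ier3* form the darkest block (0.694 to 0.913), and the rows of *Jun*, *Egr1* and *Ier5* are paler.

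The genes most like the mean z score of the members over these libraries were *Trib1*, a pseudokinase (r = 0.913), *Phlda1* (0.901), *Rnf24* (0.896), the urokinase receptor gene *Plaur* (0.878), *Rap2b*, a small GTPase (0.876), *Smox*, spermine oxidase (0.87), *Rhpn2* (0.863) and *Rdh10*, a retinol dehydrogenase (0.861). Of 16298 genes 64 were above 0.8. Among the 45 other immediate early genes measured, 24 had r above 0.5 (median 0.54), and among the 18 genes of ERK feedback and output 10 had (median 0.557), against a median of 0.002 over all genes. The other AP-1 subunits (6 of 13, median 0.195) and the SRF, TCF and CREB regulators (4 of 21, median 0.153), had lower medians. The hypoxia genes reached a median of 0.538 (8 of 14) and the heat shock genes -0.134 (3 of 16). The mean of the members also correlated with the level of the epithelial markers at 0.75, of the fibroblast markers at 0.49, with log2 *Rn18s* at -0.52 and with log2 estimated reads at 0.39. Among the members *Jun* was the one most opposed to *Rn18s* (-0.71). The part of these measures was not tested.

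The counts of called genes in the wider pathway stand beside the 3.70% of all genes called in undivided tumours against minor clones. Of the 45 other immediate early genes tested, 1 was called higher in undivided tumours than in minor clones and none lower, and the median log2 fold change was -0.02 against -0.01 over all genes. That gene was *Sgk1*, a kinase of salt and growth signalling (0.72, SE 0.20, limma adjusted p = 0.0326). Leaving out male tumours 15, 17 and 18 gave 3 called higher (*Sgk1*, *Trib1* and *Tob1*), 29 of 45 positive and a median of 0.07. *Gadd45g*, a growth arrest gene, had -0.46 (limma adjusted p = 0.103), and *Nfkbia*, the inhibitor of NF-kB, 0.25 (limma adjusted p = 0.136). Among the other AP-1 subunits, *Batf2* had 0.39 (limma adjusted p = 0.159) and *Jdp2* -0.18 (limma adjusted p = 0.454). Of 21 SRF, TCF and CREB regulators 2 were called higher, the kinase genes *Rps6ka5* (0.68, limma adjusted p = 0.027) and *Rps6ka1* (0.20, limma adjusted p = 0.0364). These kinases, MSK1 and RSK1, lie between ERK or p38 and CREB. *Atf1* had 0.12 (limma adjusted p = 0.285). Leaving out the same tumours added *Mapk8*, the gene of JNK1, to the calls.

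None of the 18 genes of ERK feedback and output was called in that comparison, although 16 of them were negative (median -0.16). That lean was smaller without male tumours 15, 17 and 18, with 11 negative and a median of -0.08. The summed level of these genes was 10999 to 12145 in those tumours, against a median of 27362 in all undivided tumours. *Spry1* (-0.31, limma adjusted p = 0.0824), *Dusp7* (-0.31, limma adjusted p = 0.219) and *Spred3* (-0.93, limma adjusted p = 0.275) are inhibitors of this pathway. Of 14 hypoxia genes 1 was called lower, *Bnip3* (-0.50, limma adjusted p = 0.0366), a mitophagy receptor, while *Vegfa* (-0.35) and *P4ha1* (-0.32) had adjusted p-values of 0.109 and 0.102 in limma. The hypoxia genes summed to 78064 to 106179 in tumours 15, 17 and 18, against a median of 151795 in all undivided tumours. Without these *Bnip3* was -0.40 (limma adjusted p = 0.0497), and *Egln3* was called higher. None of 16 heat shock genes, which rise with heat and protein damage, was called, and *Dnajb4* (0.25), *Dnajb1* (0.12) and *Bag3* (-0.21) had adjusted p-values of 0.131, 0.276 and 0.313 in limma. Against major clones, between the clones, and against divided tumours taken as 1 value, none of the genes of these 6 lists was called in limma. At an unadjusted p under 0.05 between the clones were 9 of 45 other immediate early genes, 3 of 13 AP-1 subunits, 3 of 21 regulators, 2 of 18 ERK genes, 4 of 14 hypoxia genes and 1 of 16 heat shock genes, where 22.4% of all genes were.

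Position along the small intestine made no difference that these libraries could show. Undivided tumours of the segments labelled SI10 and SI20 numbered 5 and 5 in the female mouse and 7 and 6 in the male mouse. No member was called between them, where 0.170% of all genes were, and none reached an unadjusted p under 0.05, which 7.62% of all genes did. The largest differences (SI20 minus SI10) were 0.66 for *Fosb* (95% confidence interval -0.38 to 1.69) and 0.41 for *Ier3* (-0.50 to 1.33). *Ier5* differed by -0.07, with an interval of -0.30 to 0.16. A further segment, SI30, gave 2 major and 2 minor clones of the female mouse and no undivided tumour, so class and position were partly mixed there. Against minor clones 610 genes were called in the main fit. With SI10 and SI20 only 325 were, and with mouse and segment as covariates 367.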

How the data were processed

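Libraries were made from polyA RNA with a stranded kit, and the submitters' processing notes name Trimmomatic 0.39, STAR 2.7.7a, Salmon 1.9.0 and DESeq2 on GRCm39. The authors deposited 1 table of normalised counts, a signal per gene and library estimated by Salmon against Gencode M30. Its scaling is not given in the sources used here, and whole reads could not be recovered, so no count model was used and depth was estimated from the most frequent low value, taken as 1 read (values up to 4, density bandwidth 0.05 on the log2 scale).

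Which clone was major or minor was taken, by sample name, from the source data of the study, since the labels give only clone letters. Clones were paired by the tumour number in the labels, the source of the block. Over all genes, clones of one tumour correlated at a median of 0.265 (above 0.1 in 17 of 20), against -0.02 for clones of other tumours. The fits used limma 3.58.1 in R 4.3.3 (trended eBayes) on log2(value + 1) of genes whose mean was 10 or more, with mouse as a covariate or tumour as a block. p-values were adjusted by Benjamini-Hochberg over all genes, with a threshold of 0.05. Same-tumour correlations used 100000 two-sided permutations within mice, adjusted over the 10 members, and 1e-05 is the smallest p these can give. Members, lists and tests were chosen with earlier results of these data known. Named genes were all members, the 3 genes of each list with the smallest p in undivided against divided tumours (and any called there, up to 6), and the 8 most like the mean member z score. *Cck*, *Cd3g*, *Vil1*, *Trib1* and *Tob1* as calls, *Mapk8*, *Egln3* and the genes most opposed to the members were named after their values were seen. In Gencode M39 *Ier5* overlaps an annotated lncRNA on its own strand. The counts were estimated against Gencode M30, and whether it holds this lncRNA was not checked, so a split of reads between them is not known. *Dusp1* overlaps genes on both strands, and *Jun*, *Junb*, *Ier3* and *Atf3* overlap genes on the opposite strand. Gene positions and lengths are from Gencode M39 (GRCm39). The limma script was tested on simulated data. The result of 1 listed gene is not reported here.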

Additional observations from a re-analysis of the deposited data

How the results depend on the processing

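In undivided tumours against minor clones 1 member, *Ier5*, was called under each of the other pseudocounts, filters, scalings and covariates tried, with SI10 and SI20 tumours only, and without any 1 tumour (1 to 1). By mouse the count was 0 in the female, 2 in the male (*Ier5* and *Egr1*) and 2 in the male without tumours 15, 17 and 18. Against divided tumours it was 1 (*Ier5*) rather than 0 with a pseudocount of 5, with genes of a mean of at least 50, with quantile normalization, with log2 *Rn18s* as covariate and without tumours 15, 17 and 18. It was 0 to 1 without any 1 tumour, being 1 without female 4, 8, 10, 20, 23 or 24 or male 7, 9, 17, 18, 19 or 20 (limma adjusted p of 0.021 to 0.094 over all 43). For major against minor clones it was 0 to 1 without any 1 tumour. With no replicate block for the tumour it stayed at 0, with 1 member rather than 4 at an unadjusted p under 0.05, and no call changed. Against major clones, between segments and between the mice the count was 0 in every setting run. Clones of one tumour correlated for 5 members by Pearson's r and 6 by Spearman's rho, which added *Jun*. Counts over all genes moved more, from 0 to 1455 against minor clones, 0 to 91 against divided tumours, 0 to 2 against major clones and 0 to 602 between clones (188, and 1 with no replicate block or with *Rn18s*), while the 28 genes between segments became 0 without tumours 15, 17 and 18. Of the calls against minor clones 375 of 610 were higher in undivided tumours, but 238 of 649 with equal sums and 263 of 891 with equal sums without *Rn18s*, which moved the median of all genes from -0.01 to -0.11 and -0.12. Between clones 110 of 188 were higher in major, but 133 of 346 with quantile normalization and 167 of 602 with equal sums without *Rn18s*. Against divided tumours 5 of 20 were higher, but 4 of 35 and 6 of 46 with equal sums with and without *Rn18s*. Over all 10 members, log2 fold changes changed sign in 25 of 150 refitted values against minor clones, 16 of 150 against major clones, 17 of 150 against divided tumours and 6 of 130 between clones. The alternatives without tumours 15, 17 and 18, with *Rn18s* as covariate and without *Rn18s* in the sums were chosen after seeing the data. A tumour with clones from different segments (female 22) was left out of the segment settings against divided tumours. The causes of these changes were not tested. *Fosb*, the scarcest member, had 10.9 normalised counts in its lowest library.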

Other observations

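At the other end of the likeness to the members, and chosen after their values were seen, the lowest correlations with the mean z score over the 63 libraries were those of *Oxa1l* (r = -0.805), an insertase of the mitochondrial inner membrane, *Hibadh* (-0.802), an enzyme of valine breakdown, *Macrod1* (-0.801), *Slc25a39* (-0.789), a mitochondrial carrier, and *Gcdh* (-0.784), an enzyme of lysine breakdown. Without male tumours 15, 17 and 18 these were -0.75, -0.774, -0.749, -0.784 and -0.763. In total 962 of 16298 genes had r below -0.5 and 1713 had r above 0.5. These are correlations across libraries that share mice, tumours and depth, and they carry no test.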
